A study of Homo sapiens with 11 samples.

Results

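The ABC transporters are a superfamily of proteins that share an ATP-binding cassette, the domain that binds and splits ATP. The members were the protein-coding genes whose GENCODE 29 symbol is ABC, a subfamily letter from A to G and a number. The rule found 45 of 19940 protein-coding genes (58721 genes of all kinds): 12 of subfamily ABCA, 9 of ABCB, 11 of ABCC, 4 of ABCD, 1 of ABCE, 3 of ABCF and 5 of ABCG. It uses names alone and no measured value. The ABC proteins CFTR, TAP1 and TAP2 carry other symbols and are given at the end, apart from the members.

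The cells were A375, a melanoma line long in culture that carries an activating BRAF mutation, and the labels give their genotype as WT. Messenger RNA was read by poly(A) RNA-seq. The parental group is 1 library of cells with no treatment. The persister group is 5 libraries of cells kept in 2 nM trametinib, an inhibitor of the MEK kinases downstream of BRAF, for 8 weeks, and the withdrawn group is 5 libraries of cells taken 4 weeks after the drug was removed. Each withdrawn culture carries the number of a persister culture, all come from 1 cell line, and no drug vehicle is named for the parental cells.

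Most ABC proteins sit in a membrane and use ATP to move a substrate across it. Pumps of the plasma membrane such as ABCB1, ABCC1 and ABCG2 export drugs and conjugates, and are studied in tumours for drug resistance. Others load cholesterol and phospholipids onto carriers, serve mitochondria, peroxisomes or lysosomes, or form part of a potassium channel. The ABCE and ABCF proteins have no membrane spans and act on ribosomes. ABCB5 is known in melanoma as a marker of slow-cycling, chemoresistant cells.

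Total counts ranged from 56513920 to 82984566 per library, so 3 counts corresponded to 0.0365 to 0.0553 CPM. Levels by library are given as CPM, which divides each count by the library total after TMM scaling. The members together took 0.106% to 0.118% of all counts in every library. DUSP6, whose transcription follows MEK activity, stood at 168 CPM in parental, 24.8 ± 4.78 (SD, n = 5) in persister and 186 ± 9.28 (SD, n = 5) in withdrawn cells. The 10 melanocytic markers each had counts in every group, but 3 had a mean under 1 CPM in parental, 1 in persister and 3 in withdrawn cells. Their summed level was 818 CPM in parental, 408 to 1021 in persister and 1082 to 1192 in withdrawn libraries. Of the 9 of these markers tested, 4 rose and 3 fell in persister cells. DCT and MLANA, of pigment synthesis and the melanosome, rose 144-fold and 13.96-fold (edgeR's quasi-likelihood test, adjusted p = 0.00175 and 3.44e-04). SOX10, a defining factor of the lineage, fell from 635 CPM to 51.9 ± 23.9 in persister cells (adjusted p = 5.78e-05) and stood at 814 ± 20.02 after withdrawal. The libraries of persister 1 and persister 5 stood apart from the other persister libraries in S phase genes, whose summed level was 1028 and 508 CPM against 1775 to 2516. Mitochondrially encoded genes took 8.88% and 9.28% of their counts against 4.51% to 6.72%. Each main count is therefore also given without these libraries.

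Set per exon length, the soluble members led the family. TPM also divides each count by the length of the gene's exons and allows levels of different genes to be compared. It carries no TMM scaling, and the family's summed TPM was 659 in parental, 531 in persister and 554 in withdrawn cells. Changes of a gene between groups are therefore read from CPM and the fits, not from TPM. From parental to persister cells CPM was 148 and 149 for ABCF1, and 87.3 and 114 for ABCC1. In the parental library ABCE1 and ABCF1 had the highest TPM, 127 and 125, followed by ABCB10 at 52.3, ABCC1 at 43.9 and ABCC4 at 39.3. In persister cells ABCF1 came first at 99.1 ± 14.9 TPM (SD, n = 5) and ABCE1 next at 68.7 ± 28.97. Their ranges over the libraries overlapped, at 83.3 to 118 and 38.5 to 108 TPM, but within each persister library ABCF1 had the higher TPM. ABCC1 was the next at 45.2 ± 5.17 and ABCF2 at 41.9 ± 7.03, with overlapping ranges and an order that differed between libraries. These orders were not tested. ABCC3, at rank 25 with 1.57 TPM in parental cells, stood at rank 5 with 30.0 ± 10.2 TPM in persister cells and at rank 25 with 2.95 ± 1.09 after withdrawal. ABCA10 went the other way, from rank 14 (12.5 TPM) to rank 36 (0.150 ± 0.0415) and back to rank 16 (11.6 ± 1.69). At least 1 TPM was reached by 29 members in parental, 27 in persister and 28 in withdrawn cells, and at least 10 TPM by 15, 15 and 17.

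**Figure D1:**
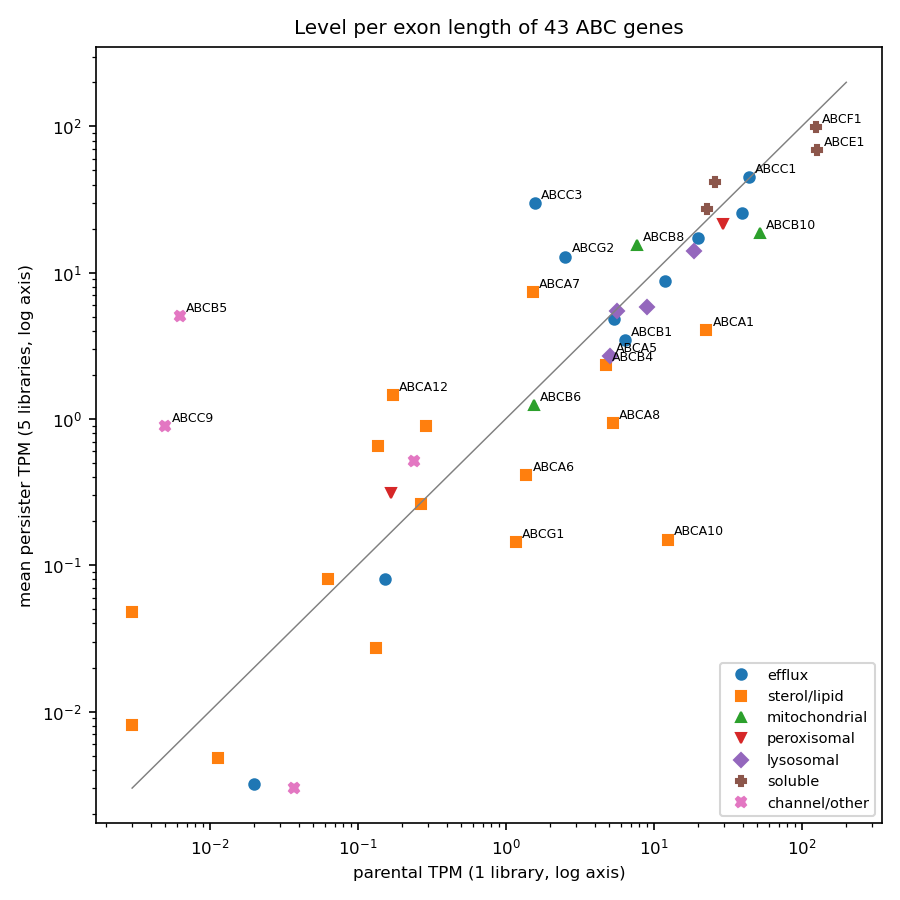
Level of 43 of the 45 ABC genes per exon length, parental cells on the horizontal axis (TPM, 1 library, log axis) against the mean of 5 persister libraries on the vertical axis (TPM, log axis), with the marker giving the role and the line equal TPM. TPM carries no TMM scaling. Values below 0.003 TPM are drawn at 0.003. ABCC3, ABCG2, ABCA7 and ABCB5 lie far above the line, and ABCA10, ABCA8, ABCG1 and ABCA1 below it.

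Summed over roles, the efflux pumps held 19.9% of the family's TPM in parental, 27.9% in persister and 19.96% in withdrawn cells. Among them ABCC3 stood at 1.57 TPM in parental and 30.0 in persister cells, and ABCG2 at 2.53 and 12.9. ABCC1 stood at 43.9 and 45.2 TPM, and each other efflux pump had a lower mean TPM in persister than in parental cells. The members that handle sterols and other lipids held 7.64%, 3.54% and 10.8%. The soluble members held 45.7%, 44.6% and 40.2%, the mitochondrial ones 13.2%, 10.5% and 14.1%. These shares describe the group means and were not tested.

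Of the 45 members, 41 had counts enough to be tested. ABCB11, the bile salt pump, ABCC8, a sulfonylurea receptor, ABCC12 and ABCG8 never exceeded 8 counts in a library. Between persister and parental cells 11 members rose and 5 fell, 39.0% of those tested, while over all 23693 genes 31.2% were called (16.1% higher, 15.1% lower). The count of members is thus of the same order as the background. In all 16 called members the parental library lay outside the range of the persister libraries, as it did in all 7391 called genes. The median log2 fold change was 0.04 over the members and 0.09 over all genes. Without persister 5 the number of members that fell was 9 and the number that rose 11, beside 35.2% of all genes called (18.1% higher, 17.1% lower). Without persister 1 and persister 5, 11 rose and 9 fell, beside 38.9% of all genes. In a fit of only the 6 libraries of these groups 6 members rose and 3 fell, beside 11.3% of all genes (5.94% higher, 5.33% lower). In bulk RNA a change in the share of cells that express a gene and a change of RNA per cell cannot be told apart.

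Between withdrawn and persister cells 14 members rose and 15 fell, 70.7% of those tested, beside 52.5% of all genes (24.5% higher, 28.0% lower). The median log2 fold change was -0.25 over the members and -0.03 over all genes. In 25 of these 29 members the withdrawn and persister libraries did not overlap, and in ABCB1, ABCB9, ABCA4 and ABCG5 they did. Over all genes the libraries did not overlap in 76.0% of those called, and in 40.6% of those tested. In a fit of these 10 libraries alone 14 rose and 14 fell, beside 56.3% of all genes (26.7% higher, 29.7% lower). Without persister 1 and persister 5, 14 rose and 15 fell, beside 54.8% of all genes. The comparison shares its persister libraries with the one above, so the values of both are set side by side below and are not independent.

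Of the 16 members called between persister and parental cells, 5 had a RefSeq promoter whose 250 bases before the RefSeq start hold no annotated UTR, and these are shown so that the members that moved can be compared in sequence. ABCG2 (chr4:88231627-88231876), ABCC9 (chr12:21941427-21941676) and ABCA12 (chr2:215138627-215138876) lie on the minus strand and rose, as did ABCA13 (chr7:48171208-48171457, plus strand), whereas ABCB10 (chr1:229558708-229558957, minus strand) fell. In GENCODE 29, used for the counts, ABCC9 starts further upstream, at 21942529, so its window lies inside the annotated gene, while the other windows lie outside theirs. The build is GRCh38.p14 and the sequences run 5′ to 3′ in lower case. Capitals would mark a match to a searched motif, and none of these windows held one.
ABCG2: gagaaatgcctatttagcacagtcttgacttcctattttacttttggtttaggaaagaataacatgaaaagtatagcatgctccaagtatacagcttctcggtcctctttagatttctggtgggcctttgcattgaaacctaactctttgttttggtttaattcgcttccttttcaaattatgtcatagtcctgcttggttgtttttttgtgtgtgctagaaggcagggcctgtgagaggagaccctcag
ABCC9: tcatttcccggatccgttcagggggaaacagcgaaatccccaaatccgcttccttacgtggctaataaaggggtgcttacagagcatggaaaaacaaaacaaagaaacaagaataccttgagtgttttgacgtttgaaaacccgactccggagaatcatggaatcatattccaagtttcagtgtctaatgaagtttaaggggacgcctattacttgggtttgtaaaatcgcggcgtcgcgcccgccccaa
ABCA12: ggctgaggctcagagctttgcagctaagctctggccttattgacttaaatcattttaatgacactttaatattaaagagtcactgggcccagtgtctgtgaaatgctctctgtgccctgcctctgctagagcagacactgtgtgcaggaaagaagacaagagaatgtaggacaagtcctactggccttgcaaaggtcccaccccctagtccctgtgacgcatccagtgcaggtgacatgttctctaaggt
ABCA13: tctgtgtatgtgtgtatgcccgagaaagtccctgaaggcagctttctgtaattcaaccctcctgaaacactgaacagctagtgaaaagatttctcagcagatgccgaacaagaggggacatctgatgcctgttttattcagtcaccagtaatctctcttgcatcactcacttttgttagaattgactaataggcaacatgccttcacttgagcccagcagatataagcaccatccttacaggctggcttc
ABCB10: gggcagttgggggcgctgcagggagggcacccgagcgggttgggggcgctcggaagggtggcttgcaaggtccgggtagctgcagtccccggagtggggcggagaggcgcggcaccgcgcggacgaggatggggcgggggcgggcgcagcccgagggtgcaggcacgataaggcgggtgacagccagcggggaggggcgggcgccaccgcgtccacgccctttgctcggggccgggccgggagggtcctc
G and C made up 40.0% of the ABCG2 window, 46.0% of that of ABCC9, 48.8% of that of ABCA12, 44.8% of that of ABCA13 and 77.2% of that of ABCB10. The other called members with a promoter did not follow this contrast. Over 300 bases, which add the 50 after the start, G and C made up 25.0% in ABCA10 and 62.7% in ABCA1, which fell. The share was 61.0% in ABCB8, 65.3% in ABCF2, 68.3% in ABCF3 and 70.0% in ABCA7, which rose. The 6 motifs were searched on both strands of 300 bases, from 250 before to 50 after the start, in the 35 of 45 members with a promoter. The E-box CACGTG occurred in 4 members (ABCA1, ABCA9, ABCB6 and ABCF1) and in 7.435% of all 27305 promoters, and the AP-1 motif TGANTCA in 2 members (ABCA5 and ABCB11) and in 7.764%. The TEAD motif GGAATG occurred in 8 members and 14.049% of all promoters, and the cyclic AMP element TGACGTCA in ABCE1 and in 1.978%. The windows of ABCG5 and ABCG8 overlap on opposite strands, and their TEAD match is the same site, counted for each. The CLEAR element of lysosomal genes, which contains the E-box, occurred in 0 members and 0.381% of promoters. An exact match to the DR4 element of the liver X receptors, a perfect repeat, occurred in 0 members and 0.018%. Sites that differ from this repeat in some letters were not searched. The ABCA1 window holds a stretch close to it, so the result does not show that ABCA1 lacks such an element. A match describes the sequence and is not evidence of binding, and its absence says only that these letters are not in the window.

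**Figure D2:**
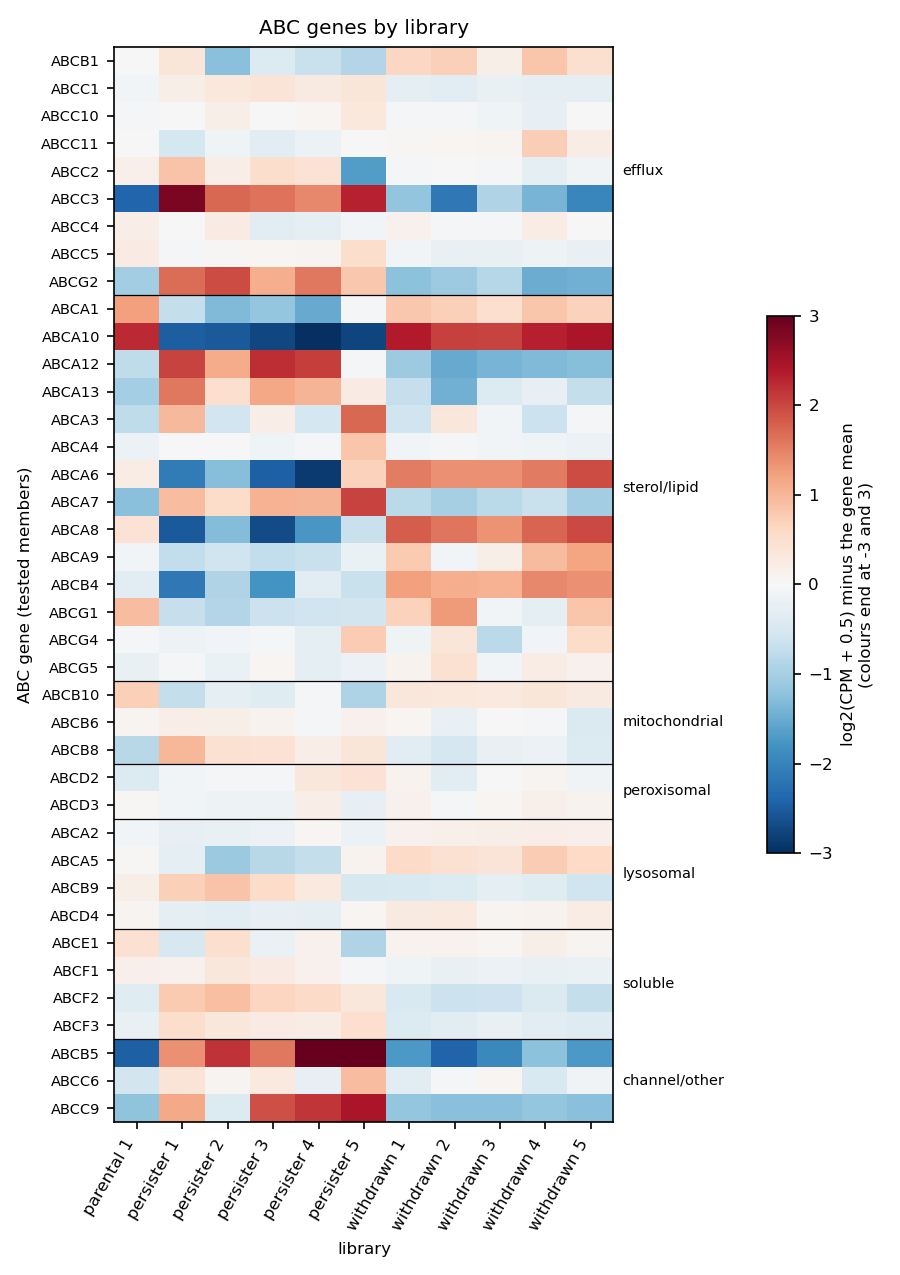
Map of 39 of the 41 tested ABC genes (rows, grouped by role) over the 11 libraries (columns). Colour gives log2(CPM + 0.5) minus the mean of the gene over all libraries and ends at -3 and 3. ABCB5, ABCC3, ABCG2 and ABCA7 are high in every persister library, and ABCA10 is low in every one and high in the parental and withdrawn libraries.

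Among the 9 tested efflux pumps 3 rose in persister cells and 0 fell, and after withdrawal 4 fell and 2 rose. These and the counts by role and by list below rest on few genes and are read against the 31.2% and 52.5% of all genes called, and 3 of 9 is near the former. ABCC3, which exports glucuronide conjugates and bile salts, had 3.96 CPM in the parental library. The persister libraries 1 to 5 had 166, 76.6, 72.1, 63.4 and 116 CPM, and the withdrawn libraries 9.78, 4.82, 11.97, 8.36 and 5.55. Every persister library was above every other library, and the parental value lay below all withdrawn ones. ABCC3 was 24.9-fold higher in persister than in parental cells (log2 fold change 4.64 ± 0.76 (SE), edgeR adjusted p = 0.00131) and 12.2-fold lower in withdrawn than in persister cells (-3.61 ± 0.34, adjusted p = 1.02e-05).

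ABCG2, the breast cancer resistance protein, exports many drugs, including kinase inhibitors. It had 3.35 CPM in the parental library, 24.8, 30.1, 16.4, 23.0 and 13.4 in persister libraries 1 to 5 and 2.88, 3.24, 3.86, 2.34 and 2.39 in the withdrawn libraries. The lowest persister value was above all others, and the parental value lay among the withdrawn ones. The gene was 6.43-fold higher in persister than in parental cells (log2 fold change 2.68 ± 0.47 (SE), edgeR adjusted p = 0.00153) and 7.33-fold lower after withdrawal (-2.87 ± 0.24, adjusted p = 2.21e-06).

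ABCC1, the multidrug resistance protein MRP1 that exports glutathione conjugates, moved by far less. It had 87.3 CPM in the parental library, 104, 114, 121, 111 and 119 in persister libraries 1 to 5 and 76.1, 74.5, 79.3, 74.8 and 75.3 in the withdrawn libraries. The groups did not overlap, with the parental value between them. The rise in persister cells was 1.31-fold (log2 fold change 0.38 ± 0.12 (SE), edgeR adjusted p = 0.0305) and the fall after withdrawal 1.499-fold (-0.58 ± 0.07, adjusted p = 2.65e-05). The call of the rise ended without withdrawn 1 (adjusted p = 0.0550), 3 (0.0502) or 5 (0.0536), without the low-count filter (0.105) and in the fit of 6 libraries (0.216).

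ABCB1, the P-glycoprotein, was not called in persister cells. It had 9.71 CPM in the parental library, 12.5, 3.80, 7.14, 5.94 and 5.07 in persister libraries 1 to 5 and 15.1, 16.3, 11.0, 17.6 and 13.7 in the withdrawn libraries. Persister 1 lay above the parental value and above withdrawn 3, and the other persister libraries lay below all of these. The log2 fold change from parental to persister cells was -0.49 ± 0.46 (SE, edgeR adjusted p = 0.437). ABCB1 rose 2.14-fold after withdrawal (1.10 ± 0.28, adjusted p = 0.00631).

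The other tested efflux pumps, ABCC2, ABCC4, ABCC5, ABCC10 and ABCC11, were not called in persister cells. ABCC2, an exporter of conjugates into bile, stood at 41.2 CPM in parental cells and at 43.1 to 67.5 in persister libraries 1 to 4, but at 11.3 in persister 5. With all libraries its difference between withdrawn and persister cells had an edgeR adjusted p of 0.383, and without persister 5 it was lower in withdrawn cells (log2 fold change -0.63 ± 0.12 (SE), adjusted p = 0.00102). ABCC5, which exports cyclic nucleotides, fell 1.26-fold after withdrawal (adjusted p = 0.0229), from 33.5 ± 5.68 to 26.7 ± 1.09 CPM (SD, n = 5 each). ABCC11 rose 2.38-fold from 0.192 ± 0.0968 to 0.459 ± 0.218 CPM (adjusted p = 0.0282), a call that ended without withdrawn 4 (0.0900) or persister 3 (0.0623). ABCC4, which exports cyclic nucleotides and prostaglandins, and ABCC10 were called in neither comparison.

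**Figure D3:**
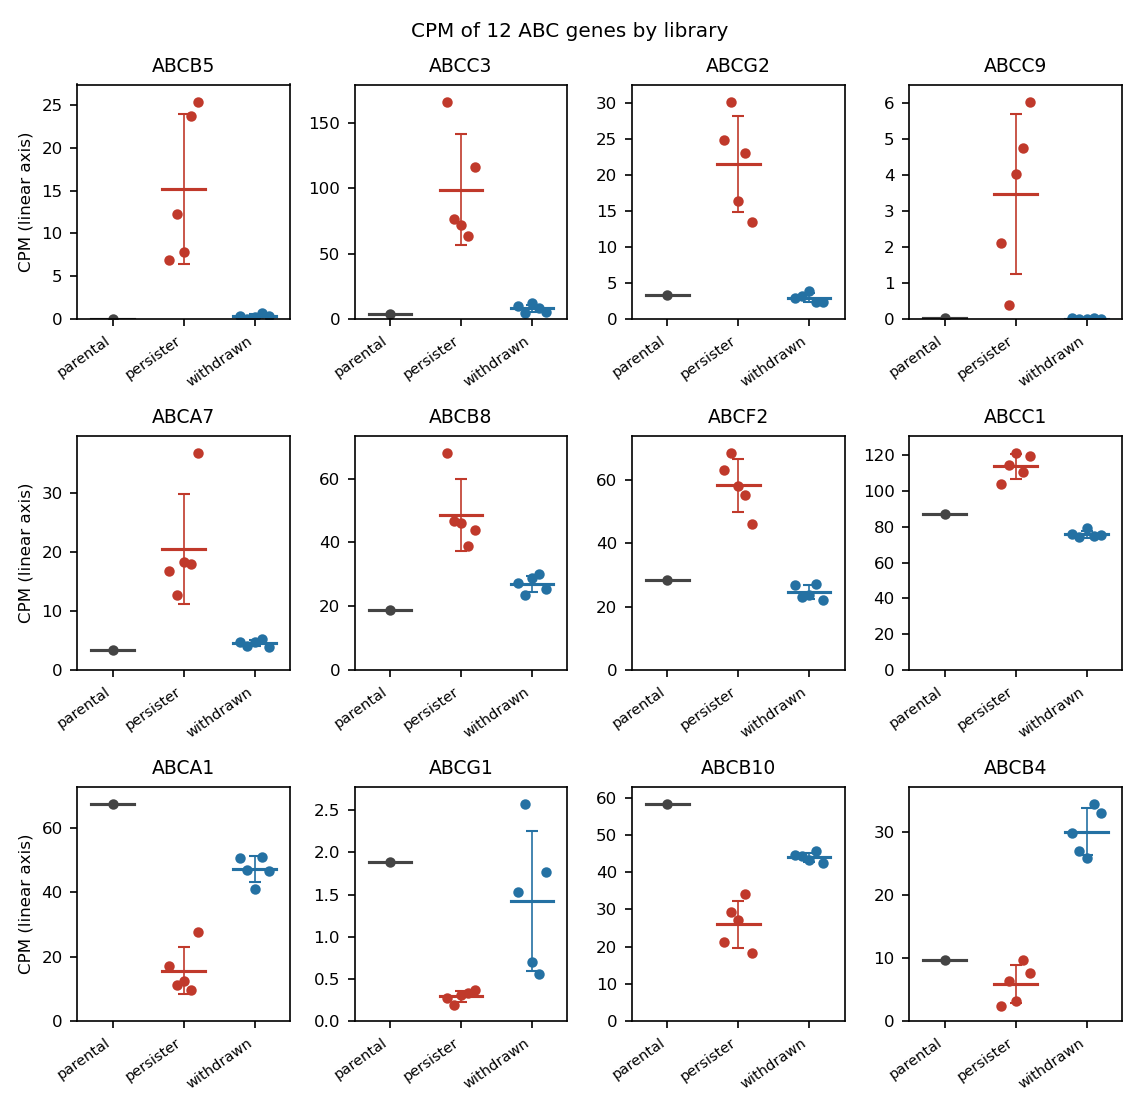
CPM by library (vertical axes, linear, from 0) of 12 ABC genes in the parental, persister and withdrawn groups. Points are libraries, horizontal lines group means and bars SD over 5 libraries, with 1 parental library. In the first 8 panels every persister library lies above every other library, whereas ABCA1, ABCG1 and ABCB10 are lowest in persister cells and ABCB4 is highest in withdrawn cells.

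ABCB5 and ABCC9 were nearly silent in parental cells. ABCB5 had 1 count there, or 0.0153 CPM, and 445, 663, 518, 1951 and 1856 counts in the persister libraries, or 6.84, 12.2, 7.88, 23.7 and 25.3 CPM. The withdrawn libraries had 0.356, 0.0350, 0.237, 0.698 and 0.358 CPM. All persister libraries were above all withdrawn ones, and these were above the parental one, whose single count limits that order. The pooled persister level was 1043 times the parental one (95% counting interval 187 to 41205, which covers counting error only), and edgeR called the rise (adjusted p = 0.00298), while limma-voom did not (0.0751). After withdrawal ABCB5 was 44.3-fold lower (log2 fold change -5.47 ± 0.62 (SE), edgeR adjusted p = 3.36e-05).

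ABCC9, the sulfonylurea receptor SUR2, joins a potassium channel pore and is not known as a pump. It had 1 count in the parental library, 2.12, 0.387, 4.03, 4.76 and 6.02 CPM in persister libraries 1 to 5 and from 0 to 0.0296 CPM in the withdrawn libraries. Persister 2 stood at the lower end of a wide persister range that did not reach the other groups. The pooled ratio of persister to parental level was 241 (95% counting interval 43.2 to 9531), called by edgeR (adjusted p = 0.0122) and not by limma-voom (0.177) or in the fit of 6 libraries (0.0574). The fall after withdrawal had an edgeR adjusted p of 3.68e-05, with 4 counts over the 5 withdrawn libraries. The pore genes KCNJ8 and KCNJ11, with which sulfonylurea receptors form channels, were called in neither comparison, and KCNJ8 stood at 0.0153 CPM in parental and 0.730 ± 0.869 in persister cells (adjusted p = 0.182). ABCC6, mutated in pseudoxanthoma elasticum, stood at 0.474 CPM in parental and 1.32 ± 0.570 in persister cells (adjusted p = 0.0806). It was called higher with DESeq2 (0.0382) and without persister 4 (0.0375), and lower after withdrawal without persister 2 (0.0471) or persister 4 (0.0187). ABCC8, left out by the low-count filter, was called lower in persister cells without that filter (0.0362), with 8 counts in parental and 1 over all persister libraries. The 9 fibroblast markers had summed levels of 19.7 CPM in parental, 84.0 to 386 in persister and 38.1 to 51.7 in withdrawn libraries. Each had counts in every group, but 5 had a mean under 1 CPM in parental, 1 in persister and 4 in withdrawn cells. Of these markers 6 rose and 1 fell in persister cells, and 1 rose and 7 fell after withdrawal. LUM was the largest part of the persister sum, at 172 ± 111 CPM against 2.16 in parental cells. PDGFRA fell from 3.64 to 1.15 ± 0.645 CPM (edgeR adjusted p = 0.0310). The sum moved in the same direction as ABCB5 and ABCC9, and the part of these markers in these results was not tested.

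Among the 14 tested members that handle sterols, phospholipids and other lipids 3 rose and 4 fell in persister cells, and 8 rose and 4 fell after withdrawal. ABCA1, which loads cholesterol and phospholipid onto apolipoprotein A-I, had 67.4 CPM in the parental library. The persister libraries had 17.1, 11.1, 12.5, 9.63 and 27.5 CPM and the withdrawn libraries 50.5, 46.9, 40.9, 51.0 and 46.5. The groups did not overlap, and the withdrawn values lay between the persister values and the parental one. ABCA1 was 4.32-fold lower in persister than in parental cells (log2 fold change -2.11 ± 0.37 (SE), edgeR adjusted p = 0.00190) and 3.03-fold higher after withdrawal (1.60 ± 0.25, adjusted p = 3.32e-04).

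ABCG1, which moves cholesterol toward high-density lipoprotein, fell as well, at a low level. It had 1.88 CPM in the parental library, 0.276, 0.184, 0.304, 0.328 and 0.369 in persister libraries 1 to 5 and 1.53, 2.57, 0.697, 0.556 and 1.76 in the withdrawn libraries. The withdrawn libraries spread on both sides of the parental value, and all were above the persister ones. It was 6.36-fold lower in persister than in parental cells (log2 fold change -2.67 ± 0.59 (SE), edgeR adjusted p = 0.00557) and 4.80-fold higher after withdrawal (2.26 ± 0.41, adjusted p = 7.50e-04).

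ABCA7, a phospholipid transporter close to ABCA1 in sequence, changed the other way. It had 3.34 CPM in the parental library, 16.8, 12.7, 18.3, 18.0 and 36.7 in persister libraries 1 to 5 and 4.73, 4.05, 4.70, 5.24 and 3.95 in the withdrawn libraries. Persister 5 was far above the other persister libraries, which were all above the remaining groups. ABCA7 was 6.15-fold higher in persister than in parental cells (log2 fold change 2.62 ± 0.52 (SE), edgeR adjusted p = 0.00322) and 4.52-fold lower after withdrawal (-2.18 ± 0.25, adjusted p = 2.97e-05).

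ABCA12, which loads lipid into lamellar granules of keratinocytes, rose from 0.428 to 4.56 ± 2.49 CPM (SD, n = 5, edgeR adjusted p = 0.0264) and fell to 0.135 ± 0.0680 after withdrawal (2.25e-05). Its 5 persister libraries had 5.91, 2.90, 6.88, 6.09 and 1.02 CPM, all above every other library. The rise lost its call with limma-voom (0.107) and in the fit of 6 libraries (0.0958). The keratinocyte markers had summed levels of 40.4 CPM in parental, 48.0 to 59.8 in persister and 35.2 to 39.2 in withdrawn libraries, with 3, 2 and 1 of 7 at 0 in all libraries of the group. Of the 5 tested, 2 rose and 1 fell in persister cells. KRT10 made up most of the sum, at 34.9 CPM in parental and 54.5 ± 4.66 in persister cells. KRT14 fell from 5.37 to 0.388 ± 0.344 CPM (edgeR adjusted p = 0.00369). The part of these markers in the result was not tested. ABCA13, among the largest proteins of the family, rose from 0.688 to 4.22 ± 1.73 CPM (edgeR adjusted p = 0.0223, and 0.0537 in the fit of 6 libraries) and fell to 1.03 ± 0.427 after withdrawal (7.23e-04). Its persister libraries had 6.71, 2.90, 4.82, 4.33 and 2.32 CPM, all above the other groups.

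ABCB4, which flips phosphatidylcholine and lies next to ABCB1, was not called between persister and parental cells but rose after withdrawal. It had 9.65 CPM in the parental library, 2.41, 6.40, 3.23, 9.68 and 7.62 in persister libraries 1 to 5 and 29.8, 27.0, 25.9, 34.5 and 33.1 in the withdrawn libraries. The parental value fell within the persister range, and every withdrawn library was above it. The rise after withdrawal was 5.11-fold (log2 fold change 2.35 ± 0.34 (SE), edgeR adjusted p = 1.59e-04), and the difference of withdrawn from parental cells had a log2 fold change of 1.64 ± 0.63 (adjusted p = 0.244). The genes ABCB4 and ABCB1 lie in the same orientation on chromosome 7 (87401697 to 87713323, GRCh38) with 23.2 kb between them.

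The remaining lipid members were low. ABCG5, which exports plant sterols together with ABCG8, rose from 0.103 ± 0.0577 to 0.244 ± 0.104 CPM after withdrawal (edgeR adjusted p = 0.0444), with overlapping groups, and this call ended without any 1 of 7 libraries (persister 2, 4 or 5 or withdrawn 1, 2, 4 or 5) and with the culture number as a block (0.0925). ABCA4, a retinoid flippase of the retina, had 0 counts in parental cells and 49 over the persister libraries, 37 of them in persister 5, and was at least 3.14-fold higher when the whole parental group is set to 3 counts (adjusted p = 0.136). It fell after withdrawal (adjusted p = 0.0444), a call that ended without any 1 of the withdrawn libraries, and with overlapping groups. ABCA3, of lung surfactant, and ABCG4 were called in neither comparison.

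The ABCA8, ABCA9, ABCA6, ABCA10 and ABCA5 genes lie in this order, all on the minus strand, within 460.0 kb of chromosome 17 (68867292 to 69327244, GRCh38). They arose by duplication and belong to a lipid-related branch of the family, and ABCA5 is found in lysosomes and late endosomes. They were set together after their values were seen, and ABCA9 falls outside the rule by which members were named. ABCA10 changed most. It had 27.6 CPM in the parental library, 0.568, 0.535, 0.396, 0.243 and 0.382 in persister libraries 1 to 5 and 30.6, 23.9, 23.7, 29.4 and 31.9 in the withdrawn libraries. The persister libraries were far below all others, and the parental value lay inside the withdrawn range. ABCA10 was 65.5-fold lower in persister than in parental cells (log2 fold change -6.03 ± 0.26 (SE), edgeR adjusted p = 9.60e-08) and 66.2-fold higher after withdrawal (6.05 ± 0.22, adjusted p = 9.12e-09).

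ABCA8 had 15.6 CPM in the parental library, 1.58, 4.37, 1.34, 3.04 and 6.99 in persister libraries 1 to 5 and 41.6, 35.5, 29.8, 39.3 and 46.6 in the withdrawn libraries. The groups did not overlap, and the withdrawn libraries were the highest. ABCA8 fell 4.49-fold in persister cells (log2 fold change -2.17 ± 0.58 (SE), edgeR adjusted p = 0.0165), a call lost without the low-count filter (0.0577) and in the fit of 6 libraries (0.0956). It rose 11.1-fold after withdrawal (3.47 ± 0.42, adjusted p = 5.24e-05).

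ABCA6 had 5.12 CPM in the parental library, 0.614, 1.48, 0.380, 0.158 and 7.27 in persister libraries 1 to 5 and 13.4, 11.9, 11.97, 13.7 and 18.1 in the withdrawn libraries. Persister 5 alone was above the parental value, and the withdrawn libraries were above both groups. With all libraries the log2 fold change from parental to persister cells was -1.37 ± 1.24 (SE, edgeR adjusted p = 0.425), and without persister 5 it was -3.002 ± 0.66 (adjusted p = 0.00675). After withdrawal ABCA6 rose with a log2 fold change of 2.80 ± 0.83 (adjusted p = 0.0158), and of 4.43 ± 0.53 (7.41e-05) without persister 5. That call ended without the low-count filter (0.0583).

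ABCA5 had 17.4 CPM in the parental library, 14.1, 7.64, 9.43, 10.3 and 18.3 in persister libraries 1 to 5 and 25.7, 23.5, 22.5, 29.3 and 26.1 in the withdrawn libraries. Here too persister 5 was above the parental value and the other persister libraries were below it. The log2 fold change was -0.55 ± 0.34 (SE, edgeR adjusted p = 0.241) with all libraries and -0.75 ± 0.25 (adjusted p = 0.0380) without persister 5, and after withdrawal ABCA5 rose 2.13-fold (1.09 ± 0.21, adjusted p = 9.82e-04). ABCA9 stood at 0.321 CPM in parental, 0.0825 ± 0.102 in persister and 0.885 ± 0.480 in withdrawn cells, and rose after withdrawal (3.38 ± 0.69, adjusted p = 0.00162). The difference of ABCA9 between persister and parental cells had an adjusted p of 0.185, and of 0.0196 without persister 5.

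**Figure D4:**
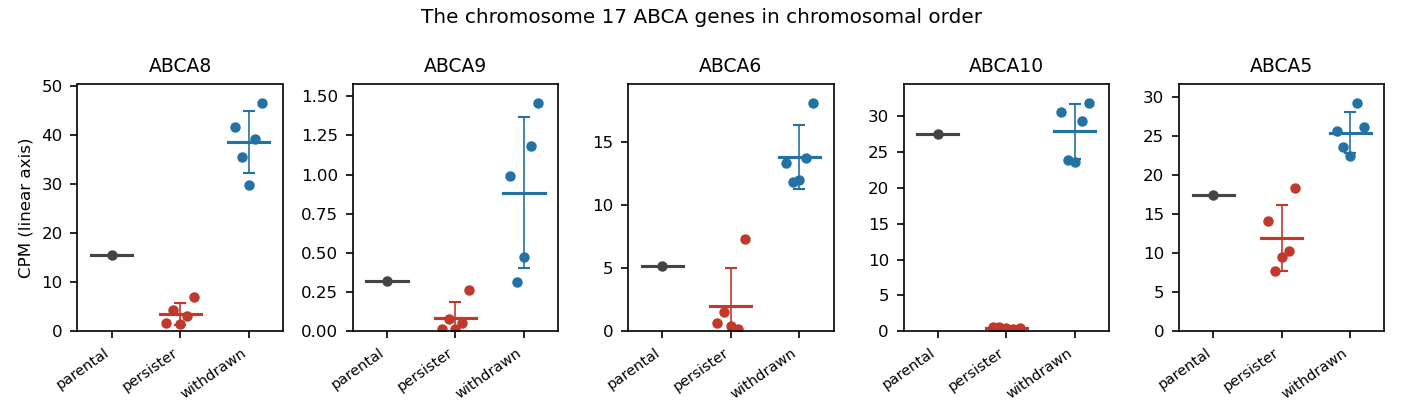
CPM by library (vertical axes, linear, from 0) of the 5 neighbouring ABCA genes of chromosome 17, in chromosomal order, in the parental, persister and withdrawn groups. Points are libraries, horizontal lines group means and bars SD over 5 libraries. All withdrawn libraries lie above all persister libraries in each panel, and ABCA10 is near 0 in each persister library.

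ABCA10 and ABCA5 share 318 exon bases on the same strand, since the annotated start of ABCA10 lies inside the 3′ end of ABCA5, and reads of that stretch cannot be assigned to either. ABCA8 and ABCA9 share 158 and 534 exon bases with ABCA9-AS1 on the opposite strand.

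Among the mitochondrial members ABCB10 fell and ABCB8 rose in persister cells. ABCB10, which acts in haem synthesis, had 58.3 CPM in the parental library, 21.2, 29.2, 27.2, 34.2 and 18.3 in persister libraries 1 to 5 and 44.5, 44.3, 43.4, 45.6 and 42.4 in the withdrawn libraries. The groups did not overlap, and the withdrawn values lay close together below the parental one. ABCB10 was 2.24-fold lower in persister cells (log2 fold change -1.16 ± 0.23 (SE), edgeR adjusted p = 0.00334, and 0.0551 in the fit of 6 libraries) and 1.69-fold higher after withdrawal (0.76 ± 0.15, adjusted p = 0.00111). Reads of ABCB10 may be shared with annotated pseudogenes, as may those of ABCC6 and ABCF2, so these counts are uncertain.

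ABCB8, part of a mitochondrial potassium channel and of iron export, had 18.8 CPM in the parental library, 68.0, 46.6, 46.0, 38.8 and 43.8 in persister libraries 1 to 5 and 27.1, 23.6, 28.9, 30.0 and 25.4 in the withdrawn libraries. Persister 1 was the highest and no group overlapped another. ABCB8 rose 2.59-fold in persister cells (log2 fold change 1.37 ± 0.27 (SE), edgeR adjusted p = 0.00312) and fell 1.80-fold after withdrawal (-0.85 ± 0.14, adjusted p = 3.84e-04). The share of mitochondrially encoded counts, 2.96% in parental, 4.51% to 9.28% in persister and 3.15% to 3.70% in withdrawn libraries, moved in the same direction as ABCB8 and opposite to ABCB10, and its part in these results was not tested. ABCB6, a porphyrin transporter, was called in neither comparison. ABCB6 had 2.13 CPM in parental cells, 1.90 to 2.32 in persister and 1.32 to 2.05 in withdrawn libraries, and shares 2864 exon bases with AC068946.2.

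Of the peroxisomal members, which import fatty acyl chains for oxidation, ABCD2 and ABCD3 were called in neither comparison. ABCD2 stood at 0.275 CPM in the parental library, 0.643 ± 0.193 in persister and 0.511 ± 0.116 in withdrawn libraries (SD, n = 5 each), and its difference between persister and parental cells had an edgeR adjusted p of 0.0962. ABCD3 stood at 58.2, 53.9 ± 7.01 and 60.1 ± 3.30 CPM (adjusted p = 0.620), and was called higher after withdrawal without persister 4 (0.0233). Of the 4 lysosomal members 0 were called between persister and parental cells with all libraries, while without persister 5 ABCA5 and ABCD4 were called lower (edgeR adjusted p = 0.0380 and 0.0464). After withdrawal ABCA2, ABCA5 and ABCD4 rose and ABCB9 fell. ABCD4, which takes part in vitamin B12 release from lysosomes, had 20.8 CPM in the parental library, 16.0, 15.4, 16.5, 16.2 and 20.3 in persister libraries 1 to 5 and 23.7, 24.2, 20.7, 20.9 and 22.8 in the withdrawn libraries. Persister 5 came near the other groups and the other persister libraries were lower, and the rise after withdrawal was 1.33-fold (0.41 ± 0.10, adjusted p = 0.00408).

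ABCA2, a lysosomal lipid transporter, rose 1.25-fold after withdrawal, from 53.6 ± 4.81 to 66.7 ± 1.45 CPM (SD, n = 5 each, edgeR adjusted p = 0.00386). ABCB9, a lysosomal peptide transporter, had 19.9 CPM in the parental library, 29.4, 32.4, 26.2, 21.6 and 12.5 in persister libraries 1 to 5 and 12.7, 13.1, 14.3, 13.6 and 11.5 in the withdrawn libraries. Persister 5 lay within the withdrawn range. ABCB9 fell 1.87-fold after withdrawal (-0.90 ± 0.21, edgeR adjusted p = 0.00340). The annotation has 45.1% of its exon bases shared with genes of the opposite strand (OGFOD2, ARL6IP4 and AC026362.1), and as the strand setting of the counting is not given, reads of these genes may be mixed.

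The soluble members, which bind ribosomes, divided. ABCF2 had 28.5 CPM in the parental library, 63.2, 68.5, 58.1, 55.2 and 46.2 in persister libraries 1 to 5 and 26.8, 23.2, 23.7, 27.0 and 22.0 in the withdrawn libraries. All persister libraries were above all others, and the withdrawn ones were below the parental one. ABCF2 rose 2.04-fold in persister cells (log2 fold change 1.03 ± 0.21 (SE), edgeR adjusted p = 0.00329) and fell 2.37-fold after withdrawal (-1.25 ± 0.11, adjusted p = 3.92e-06). It shares 1914 exon bases with AC021097.2 on the same strand.

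ABCF3 had 31.4 CPM in the parental library, 53.1, 46.0, 43.6, 42.9 and 52.4 in persister libraries 1 to 5 and 27.3, 29.2, 31.0, 29.4 and 27.9 in the withdrawn libraries. It was high in each persister library, without overlap. ABCF3 rose 1.51-fold (0.60 ± 0.15, edgeR adjusted p = 0.0123, and 0.104 in the fit of 6 libraries) and fell 1.64-fold after withdrawal (-0.72 ± 0.08, adjusted p = 3.17e-05). ABCF1, an initiation factor, stood at 148 CPM in parental and 149 ± 15.2 in persister cells (adjusted p = 0.959) and fell to 117 ± 2.83 after withdrawal (adjusted p = 0.00349).

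ABCE1, which splits the ribosome after termination so that it can be used again, was called in neither comparison. It had 209 CPM in the parental library, 109, 212, 134, 168 and 81.7 in persister libraries 1 to 5 and 165, 165, 159, 174 and 162 in the withdrawn libraries. Persister 2 reached the parental level, and persister 5 and persister 1 were the lowest, in the same order as their S phase genes, whose part in the result was not tested. The log2 fold change from parental to persister cells was -0.57 ± 0.34 (SE, edgeR adjusted p = 0.226), and -0.76 ± 0.27 (adjusted p = 0.0435) without persister 2. ABCE1 shares 15.8% of its exon bases with opposite-strand genes.

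**Figure D5:**
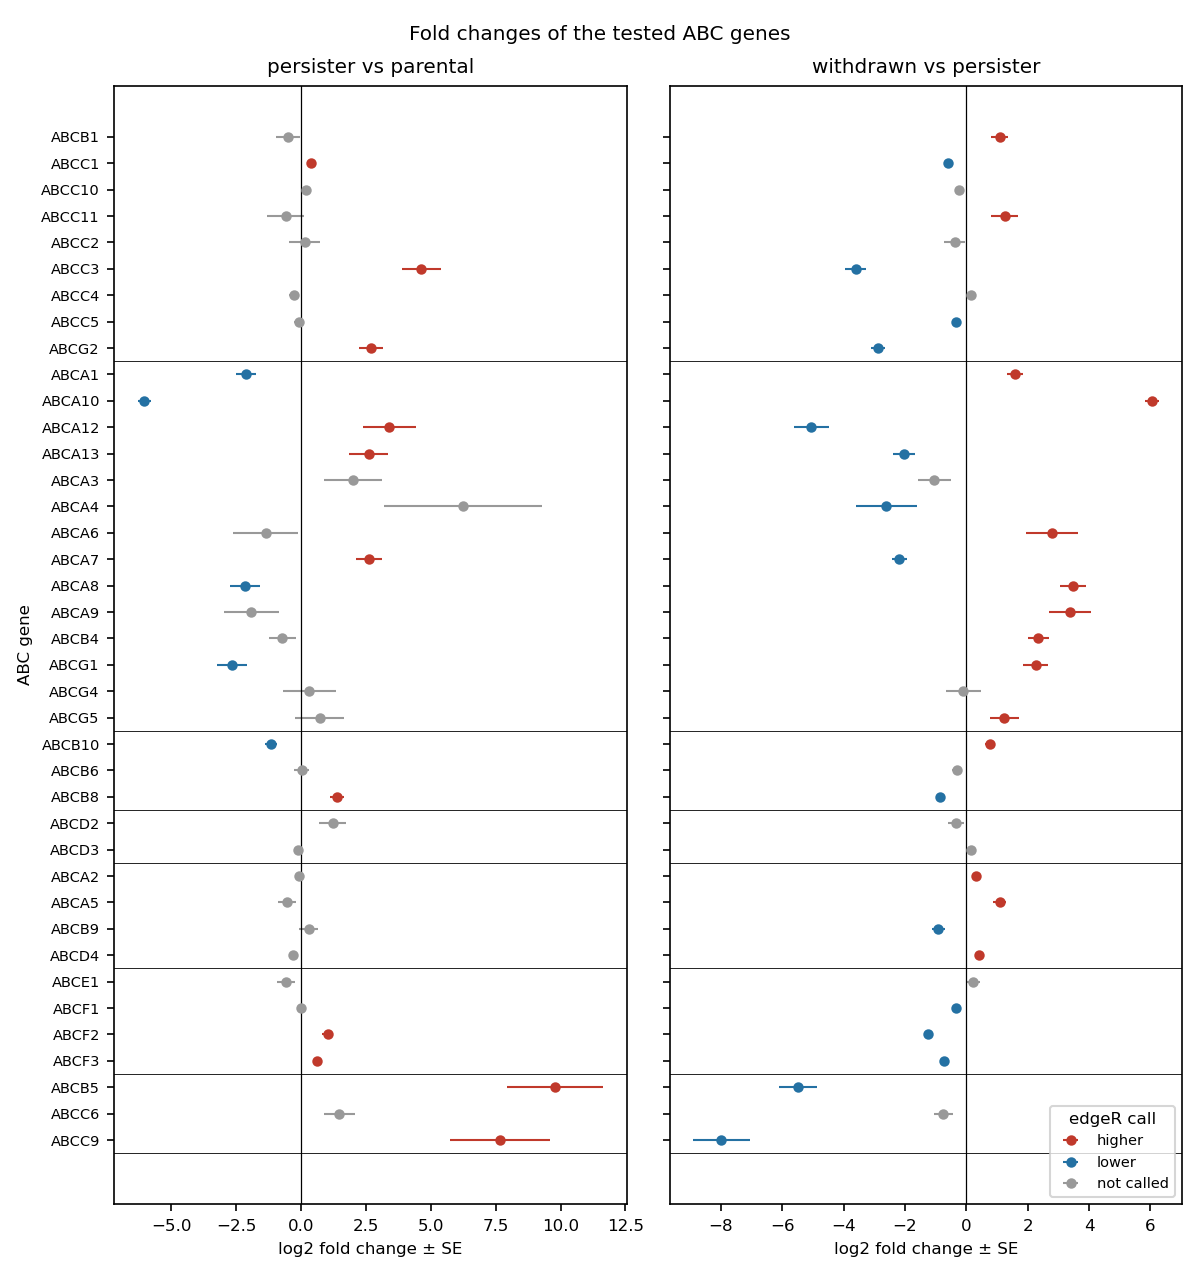
Fitted log2 fold change (horizontal axes) with its SE for 39 of the 41 tested ABC genes (vertical axis, grouped by role as in the map by library) between persister and parental cells and between withdrawn and persister cells. Colour gives edgeR's call at an adjusted p under 0.05. The left panel has 11 genes higher and 5 lower, the right one 14 higher and 15 lower, and the fitted values of ABCB5, ABCC9 and ABCA4 in the left panel rest on 1 or 0 parental counts.

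Between withdrawn and parental cells 0 of the 41 tested members were called by edgeR, beside 0.431% of all genes (0.312% higher, 0.118% lower), and 0 by DESeq2 or limma-voom. The unadjusted p was under 0.05 for 4 members: ABCB4 (0.0242), ABCF1 (0.0296), ABCC5 (0.0377) and ABCB5 (0.0491). In a fit of only the 6 libraries of these groups, whose spread comes from the withdrawn libraries alone, 7 members were higher and 8 lower, beside 30.5% of all genes (16.1% higher, 14.4% lower). The largest of these was ABCB4 (log2 fold change 1.62 ± 0.17 (SE), edgeR adjusted p = 2.46e-04), followed by ABCA6 and ABCA8. Without persister 1 and persister 5, ABCA1 (-0.51 ± 0.14, adjusted p = 0.0497), ABCC5 (-0.42 ± 0.10, 0.0247) and ABCF1 (-0.34 ± 0.09, 0.0489) were called lower, beside 9.04% of all genes. The parental library lay outside the withdrawn range for 29 of the 41 members (70.7%) and for 63.8% of all genes.

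The persister cultures varied more than the withdrawn ones in most members. The coefficient of variation of CPM, the SD as a percentage of the mean, had a median over the 41 tested members of 35.6% in persister and 12.4% in withdrawn libraries, beside 29.5% and 12.3% over all genes. It was larger in persister cells for 35 members. In persister cells it ran from 6.19% for ABCC1 to 151% for ABCA6. For ABCB5 it was 57.7%, with persister 4 and persister 5 above the other persister libraries. Persister 5 was the highest persister library for 18 of the 41 members and the lowest for 10.

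Genes that act beside the members were taken from lists written for this account. Of 20 tested regulators 5 rose and 2 fell in persister cells. The liver X receptors, which are known to activate ABCA1 and ABCG1, rose: NR1H2 from 46.7 to 79.8 ± 9.34 CPM (edgeR adjusted p = 0.00411) and NR1H3 from 8.03 to 17.5 ± 5.59 CPM (0.0352). Of their partners, RXRA rose 1.87-fold from 20.5 to 38.3 ± 5.97 CPM (0.00541), RXRB stood at 25.4 and 31.4 ± 3.49 CPM (0.172), and RXRG fell 26.3-fold from 61.7 to 2.33 ± 1.34 CPM (1.87e-05). NR1H4, the bile acid receptor FXR, rose from 0.0765 to 4.00 ± 2.25 CPM (0.00492). After withdrawal 6 regulators rose and 4 fell. NR1H2 fell to 56.5 ± 2.25 CPM (adjusted p = 5.50e-04) and NR1H3 stood at 13.7 ± 1.24 CPM (0.144).

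Of 15 tested partners in sterol handling 2 rose and 1 fell in persister cells. NPC2, which binds cholesterol in lysosomes, rose 2.80-fold from 39.6 to 111 ± 27.9 CPM (edgeR adjusted p = 0.00371). After withdrawal 5 rose and 6 fell. Of 16 tested genes of glutathione and glucuronide conjugation, which make substrates of the ABCC pumps, 7 rose and 1 fell in persister cells, and 1 rose and 10 fell after withdrawal. MGST1, a microsomal glutathione transferase, rose 7.38-fold from 36.5 to 269 ± 75.5 CPM (adjusted p = 4.52e-04) and fell to 48.1 ± 7.79 (2.10e-06). MGST3 rose from 27.9 to 92.8 ± 21.3 CPM (8.40e-04). The genes of glutathione synthesis divided: GCLC fell from 53.9 to 38.8 ± 3.37 CPM (0.0160), GSS rose from 99.5 to 139 ± 15.3 CPM (0.0331), and GCLM stood at 43.8 and 59.2 ± 17.6 CPM (0.318).

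Of 22 peroxisome genes 9 rose and 1 fell in persister cells, and 4 rose and 9 fell after withdrawal. PEX2 rose from 28.5 to 50.02 ± 3.41 CPM (edgeR adjusted p = 0.00106). Of 15 genes of haem and iron-sulfur synthesis 6 rose and 1 fell, and 1 rose and 9 fell after withdrawal, and ISCU, the scaffold of iron-sulfur clusters, rose from 43.6 to 93.2 ± 16.8 CPM (0.00302). Of 10 ribosome rescue genes 1 rose and 0 fell, and 2 rose and 0 fell after withdrawal. The ABC protein TAP1, which carries peptides into the endoplasmic reticulum for antigen presentation, rose 2.17-fold from 21.0 to 45.6 ± 7.30 CPM (0.00220) and fell to 26.4 ± 1.69 (1.14e-04). Its partner TAP2 stood at 20.8 and 28.1 ± 5.20 CPM (0.148) and fell to 16.3 ± 1.09 after withdrawal (2.35e-04), and CFTR had 0 counts in parental and 0.225 ± 0.183 CPM in persister cells (0.116). The median log2 fold change from parental to persister cells was 0.23 for regulators, 0.17 for sterol partners, 0.96 for conjugation and 0.38 for peroxisome genes. It was 0.34 for haem genes and -0.14 for ribosome rescue genes, beside 0.09 over all genes.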

How the data were processed

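Poly(A) RNA of 11 libraries was measured. The values are raw read counts per gene, whole numbers that the authors deposited in a single table. Per the labels' protocols, the mRNA libraries were stranded. Per the submitters' processing notes, bcl2fastq, HISAT2, HTSeq and hg38 were used. For these tools no version, annotation release or strand setting was found, so reads of overlapping genes may be mixed: 11 members share exon bases with a gene on the opposite strand. All 58721 gene IDs matched GENCODE release 29, which gave symbols, exon lengths and GRCh38 coordinates (1-based), and 18024 genes had 0 counts throughout.

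All 11 libraries in 3 groups were fitted together in edgeR 4.0.16 (R 4.3.3) with robust quasi-likelihood and 8 residual degrees of freedom. Genes passed filterByExpr (10 counts, 15 in total), libraries were scaled by TMM, and p-values were adjusted by Benjamini-Hochberg over 23693 genes, with a threshold of 0.05. The single parental library borrows the spread of the other groups. The labels do not say that cultures were selected apart from each other, so the p-values reflect the spread of these samples, which may be technical. CPM used the TMM factors, and TPM the union of exons. Each withdrawn sample bears a persister culture's name and number, but the tests reported carry no pairing term, and the culture number enters only as a block in an alternative. The deviations of same-numbered samples from their group means correlated across genes at 0.0484 to 0.0909. The highest correlation with a sample of another number was -0.0158 to 0.0439, and lay below that of the own number for each culture. Alternatives were RLE scaling, DESeq2 1.42.0, limma-voom (limma 3.58.1), other low-count filters, fits of the compared groups alone, the culture number as a block and leaving out libraries. The test was tried on simulated data with known changes, in which each gene had the same spread in all groups. Those data do not cover the difference in spread between persister and withdrawn libraries, so no conclusion is drawn from them. Total counts ranged from 56513920 to 82984566, and 95% intervals and the floor of 3 counts cover counting error only.

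Members with values by library were those called in any comparison with a mean of at least 1 CPM in the higher group, at most the 10 largest rises and falls of each, and ABCB1, ABCC1, ABCG2, ABCB5, ABCA1, ABCG1, ABCB6 and ABCE1. Of each other list, up to the 3 called genes with the smallest adjusted p and NR1H2, NR1H3, TAP1, TAP2 and CFTR were named, and DUSP6 and SOX10 check the labels. Other genes named, such as DCT, MLANA, RXRA, RXRB, ABCA4, ABCA9, ABCC2, ABCC6, ABCC8, ABCC11, ABCG5, GCLC, KCNJ8 and KCNJ11, were chosen after their values were seen. The members and lists were chosen with earlier results of these data known. Values of 2 members and of 1 gene of the other lists are not reported here, although counts over the lists include them. Promoters are from RefSeq (GRCh38.p14).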

Additional observations from a re-analysis of the deposited data

Results flagged for a closer look

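In 10 of 82 sets of 5 libraries (41 members in the persister and the withdrawn group) 1 library lay far from the other 4 by Dixon's test at the 95% level, always as the highest. Chance gives this in about 1 in 20 sets when values are normally distributed and sets are independent. Here CPM was taken on a linear scale and the sets share their libraries, so the 10 of 82 are not read against that share. Persister 5 was that library 7 times: ABCA4 at 0.505 CPM (next 0.0614), ABCA6 at 7.27 (1.48), ABCA7 at 36.7 (18.3), ABCA9 at 0.259 (0.0738), ABCC5 at 43.5 (32.1), ABCD4 at 20.3 (16.5) and ABCG4 at 1.17 (0.456). ABCA2 was highest in persister 4, at 62.0 CPM (52.8), and ABCB8 in persister 1, at 68.0 (46.6). ABCC11 was highest in withdrawn 4, at 0.841 CPM (0.440).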

How the results depend on the processing

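Over the log2 fold changes of the 25 members named by rule, 1253 values under the alternatives kept direction and call, 20 gained a call, 16 lost it and 7 changed sign. Over all members and fits 41 calls were gained, 18 of them between withdrawn and parental cells, and 34 were lost. The changes of sign concern values near 0, none of them called. ABCA10 between withdrawn and parental cells (0.02) was -0.00683 with DESeq2, -0.00689 with RLE scaling and -0.0419 to 0.0660 when 1 library was left out. Without persister 1 and persister 5, ABCB6 between persister and parental cells was -0.0113 and ABCE1 between withdrawn and persister cells -0.0597. Between persister and parental cells the members that rose numbered 10 to 12 and those that fell 5 to 9 when 1 library was left out, 9 without persister 5, and 9 fell without persister 1 and persister 5 together. In the fit of only the groups compared 6 rose and 3 fell. Between withdrawn and parental cells that fit gave 7 higher and 8 lower, and leaving out persister 1 and persister 5 gave 3 lower. Fewer libraries enter these fits, and the spread is taken from those that enter. The median coefficient of variation over all genes was 29.5% in persister and 12.3% in withdrawn libraries. The part of the number of libraries and of their spread in the differences was not tested.

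With the replicate block, which pairs each withdrawn culture with the persister culture of its number, 13 members rose and 14 fell after withdrawal, against 14 and 15. ABCG5 lost its call (adjusted p = 0.0925), ABCA4 was not tested there, and no other call of a member changed. Over all alternatives 12 to 15 rose and 14 to 17 fell. With DESeq2 no adjusted p was given for ABCA6 after withdrawal. Between persister and parental cells limma-voom called 8 members higher and 5 lower. Ranks by TPM moved by at most 5, 3 and 8 places in parental, persister and withdrawn cells when the longest transcript set the length, and coefficients of variation by at most 4.09 points when CPM used total counts. The depth limits ABCB11, ABCC8, ABCC12 and ABCG8, which were not tested.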
